A study of Mus musculus with 16 samples.

Results

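The loss of ACSL6 at 18 months of age was described from 8 of the 16 cerebellum libraries of the study, 4 from Acsl6-/- mice and 4 from control mice, which were chosen by the age and genotype in the sample labels. Of the 17074 genes in the table, the 17042 with a mean normalized count of at least 10 over the 16 libraries were tested. All libraries were poly-A RNA-Seq of dissected whole cerebellum from C57BL/6 mice, which were female, and the other 8 libraries hold the same pair of genotypes at 2 months. The 18-month-old mice of both genotypes are labelled as naturally aged and received no other treatment. Acsl6-/- mice came from floxed Acsl6 crossed to a CMV-Cre line, so that the deletion is germline and in every tissue and not limited to the cerebellum or to 1 cell type. Both genotypes ate chow without docosahexaenoic acid (DHA). The other group is given as control and as WT in the labels.

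ACSL6 is a long-chain acyl-CoA synthetase. It couples fatty acids, with a preference for DHA in its neuronal form, to coenzyme A, which is the step that lets them enter membrane phospholipids. Membrane lipid composition is sensed in the endoplasmic reticulum by the SREBP system, in which SREBP2, made from Srebf2, switches on genes of cholesterol synthesis and uptake when sterol there is low. Microglia are the resident phagocytes of the brain, and complement proteins tag material for them to take up.

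Each aged library held between 18120742 and 27569428 gene-assigned reads, and the values below are read counts divided by 1 size factor per library (normalized counts). Changes are given as differences of log2(normalized count + 1), which understates the change of low genes. The aged libraries carried the markers of their tissue. All 23 listed granule cell genes and all 25 Purkinje cell genes were measured, with summed normalized counts of 185303 to 212967 and 247865 to 276469 in the Acsl6-/- libraries and 184899 to 191175 and 243626 to 257151 in the controls. Choroid plexus, a tissue that borders the cerebellum, entered the libraries unequally. Its transcript Ttr stood at 12123, 163, 389.7 and 331 in the 4 Acsl6-/- libraries and 209, 87.9, 26550.5 and 8768 in the 4 controls. It was high in 1 Acsl6-/- library and 2 controls, and low in the other 5. The 22 measured choroid plexus and ependymal genes summed to 3865 to 27830.1 and 3603 to 51547 in the respective groups. Gm42418, a gene model that overlaps ribosomal RNA, was at 686717 in aged control 3 and between 16470.1 and 41707 in the other aged controls, and both Ttr and Gm42418 are named here because a library stood apart in them. Nothing in the labels states that the 4 libraries of a group came from separate litters or preparation days, so p-values measure the spread between these libraries.

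Acsl6 itself lies on the plus strand at chr11:54303798-54364756 (GRCm38). Its normalized counts were 2101, 2276, 2195 and 2140.0 in the 4 Acsl6-/- libraries and 5839, 5918, 6086 and 6037 in the 4 controls. The knockout retained 36.5% of the control level, a log2 fold change of -1.45 ± 0.037 (SE, 4 against 4 libraries), with an adjusted p of 4.97e-15 by limma with Benjamini-Hochberg adjustment over all genes tested. The groups were far apart. Per-gene counts do not show from which exons the remaining reads came. At 2 months the difference was -1.56 ± 0.037, and the genotype by age interaction, which tests the difference between the ages, had an adjusted p of 0.525. Of 118 genes tested within 5 megabases, 0 passed the threshold by limma, 2 were above and 7 below 0 at a raw (unadjusted) p of 0.05 or less, and their median log2 fold change was -0.00097. By edgeR and DESeq2 on recovered reads the counts were 0 and 1. Of the 16 measured acyl-CoA synthetases Acsl6 alone was called by limma, edgeR or DESeq2, and alone had a raw p of 0.05 or less. Acsl4, which prefers arachidonic acid, was at 0.14 ± 0.069, Acsl5 at 0.18 ± 0.097 and Acsl1 at 0.095 ± 0.059.

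Besides Acsl6, the comparison called few genes. By limma at an adjusted p under 0.05, 14 genes rose (0.0821% of those tested) and 27 fell (0.158%), Acsl6 included. Among these 41, only Acsl6 and the gene model Gm37008 differed by more than 2-fold, and the median over all tested genes was 0.0027 on the log2 scale. Of all tested genes 51.15% were above 0, and at a raw p of 0.05 or less 4.61% were higher and 4.54% lower. The list counts below are to be read beside these shares. In all 41 called genes the 4 Acsl6-/- values lay wholly above or wholly below the 4 control values, an arrangement that 2.89% of tested genes showed upward and 2.28% downward. Without overlap the exact two-sided permutation p is fixed at 0.0286, the smallest that 4 against 4 libraries allow, and adds nothing to these calls. The last gene inside the threshold was Rpl23a (adjusted p 0.0456) and the first outside was Mmp16 (0.058). Which genes passed depended on the libraries: 11 of the 41 stayed called when each aged library was left out in turn (Acsl6, Srebf2, Stard4, Rps29, Ndufa2, Uqcr10, Naa38, Atp5e, Cox6b1 and 2 genes not named here). The number of calls was 17, 20 and 19 without Acsl6-/- replicates 2, 3 and 4, and 16, 22 and 26 without control replicates 1, 2 and 4, against 53 without Acsl6-/- replicate 1 and 39 without control replicate 3. With reads recovered from the values, edgeR called 20 genes higher (0.117%) and 29 lower (0.17%) and DESeq2 73 higher (0.429%) and 95 lower (0.558%), and each of these tools called 40 of the 41. Without the 5 libraries of the series with Ttr above 5000, 23 genes were called, 15 of them among the 41. Of the aged libraries, this leaves Acsl6-/- replicates 2, 3 and 4 against control replicates 1 and 2, so fewer libraries carry the comparison.

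**Figure D1:**
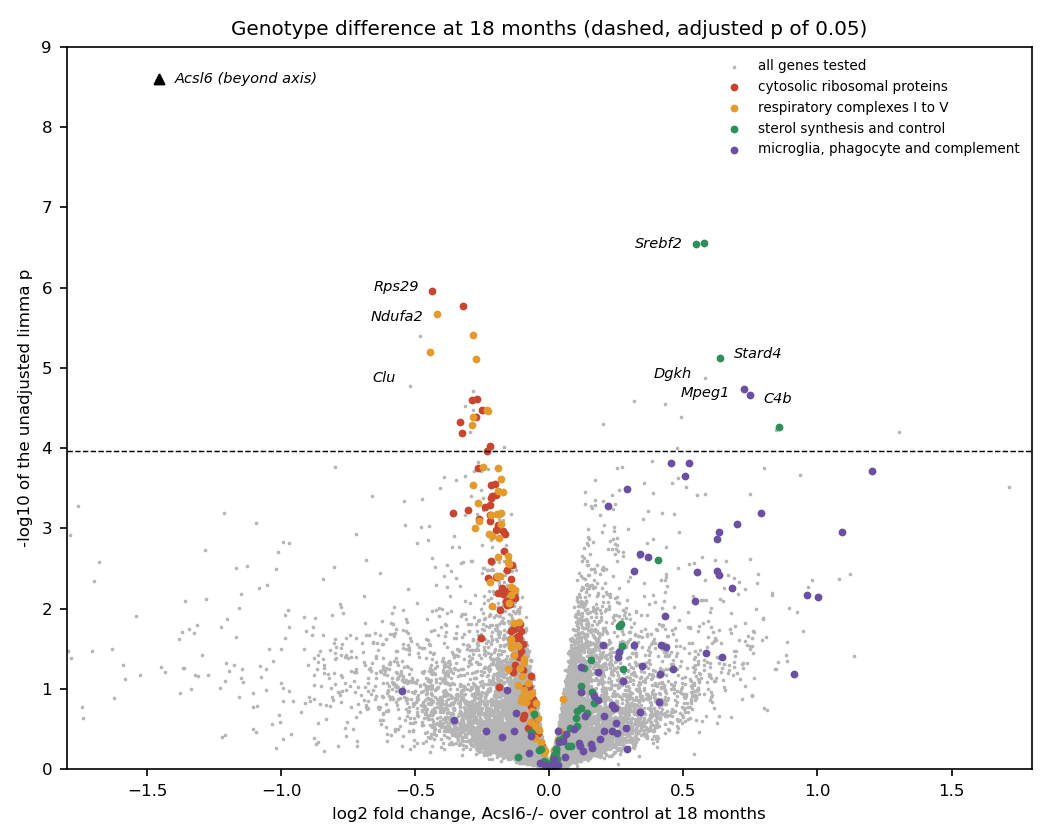
Log2 fold change of aged Acsl6-/- over aged control (x axis) against the -log10 of the unadjusted limma p (y axis) for 17042 genes, with 12 genes beyond the x axis not drawn. Points above the dashed line are the 14 genes that rose and the 27 that fell, and the red and orange points of ribosomal and respiratory genes gather on the left side. Microglial and cholesterol synthesis genes lie mostly on the right, while the median of the SREBP control and sterol transport genes is near 0 (0.021).

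The sterol genes made up 4 of the 14 genes that rose, among them Srebf2 and Stard4. Srebf2 (plus strand, chr15:82147181-82205379) encodes the transcription factor SREBP2. Its normalized counts were 3849, 3258, 4009.8 and 4288 in the 4 Acsl6-/- libraries and 2661, 2428, 2704 and 2714 in the 4 controls. Every knockout library was above every control, 1.47-fold on the group means, with a log2 fold change of 0.55 ± 0.07 and an adjusted p of 0.00162. The promoter of Srebf2 is shown because this gene carries the sterol result and because the window holds, in capitals, the letters ATCACCCC, a sterol regulatory element sequence to which SREBPs can bind. The motif starts 163 bases before the RefSeq start, on the plus strand at chr15:82147106-82147113, and the sequence is from RefSeq (GRCm38.p6).
Srebf2 chr15:82147019-82147318 (+): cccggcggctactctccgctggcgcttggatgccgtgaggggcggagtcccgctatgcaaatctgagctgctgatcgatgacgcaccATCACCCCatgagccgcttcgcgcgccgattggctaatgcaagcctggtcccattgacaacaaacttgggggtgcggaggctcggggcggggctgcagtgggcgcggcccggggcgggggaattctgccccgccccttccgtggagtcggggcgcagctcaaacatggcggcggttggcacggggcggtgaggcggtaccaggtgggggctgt
Searched on both strands, ATCACCCC was in 253 of 32851 promoter windows of this length (0.77%), which is a match of letters and not a bound site. Promoter windows were found for 26 of the 41 called genes, and Srebf2 was the only one of these with a match. The other called sterol genes, Stard4 included, had no window and were not searched. Of 34 listed sterol genes with a window, 2 held a match.

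Stard4, which carries cholesterol between membranes, was measured at 1792, 1659, 2142 and 1835 in the 4 Acsl6-/- libraries and 1155, 1129, 1244 and 1229 in the 4 controls. Its lowest Acsl6-/- value was well above its highest control, and the group means differed 1.56-fold (log2 fold change 0.64 ± 0.10, adjusted p 0.012). Of the 22 listed genes for SREBP control and sterol transport, all measured, 3 rose and 0 fell, and the list's median was 0.021 against 0.0027 for all genes. The median was near that of all genes, and the calls belonged to few members. Insig1, a sterol-regulated retention factor for SREBPs, was at 0.40 ± 0.12 (adjusted p 0.2), and Insig2 at -0.057 ± 0.043.

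The enzymes of cholesterol synthesis lay mostly on the positive side, and 1 passed the test. Of 21 measured, 1 rose and 0 fell, 17 were above 0, and the median was 0.12. At a raw p of 0.05 or less, 5 of 21 were higher, where 4.61% of all tested genes were. Nsdhl, Mvd and Fdft1, which act in the late pathway, in the mevalonate branch and at squalene formation, were at 0.27 ± 0.10, 0.26 ± 0.099 and 0.27 ± 0.12, with adjusted p of 0.417, 0.426 and 0.485. The list's mean level ranged from -0.015 to 0.13 in the Acsl6-/- libraries and -0.11 to -0.03 in the controls, as log2 deviations from the mean of the 8 aged libraries, so the groups did not overlap but lay close. At 2 months this list had a median of 0.30 with 20 of 21 above 0, and 8 of 21 members had a smaller genotype difference at 18 than at 2 months at a raw interaction p of 0.05 or less, compared with 5.23% of all genes. Srebf2 itself was at 0.79 ± 0.07 at 2 months and Stard4 at 0.80 ± 0.10, and neither interaction passed (adjusted p 0.409 and 0.748).

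**Figure D2:**
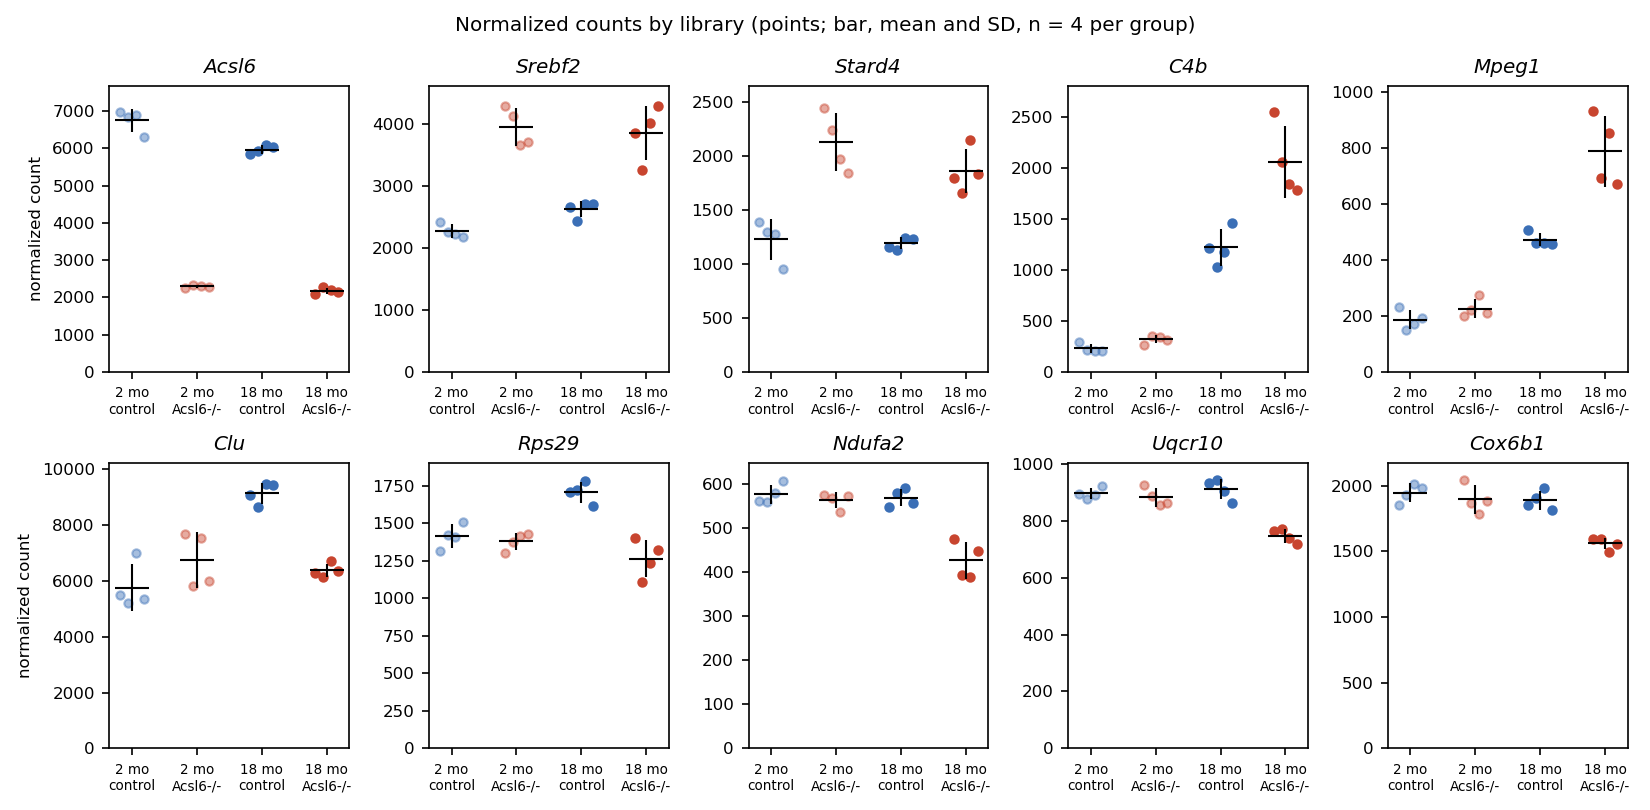
Normalized counts (y axis, from 0) of 10 genes in each of the 16 libraries, by age and genotype (x axis), with 1 point per library and bars for the mean and SD (n = 4 per group). Srebf2 and Stard4 are higher in Acsl6-/- mice at both ages, while Rps29, Ndufa2, Uqcr10, Cox6b1 and Clu are lower in Acsl6-/- mice at 18 months, and their genotypes overlap at 2 months.

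Complement and phagocyte genes gave 2 of the 14 genes that rose. C4b, which encodes complement component C4 and is cleaved to tag surfaces, was at 2547, 2050.5, 1834 and 1779 in the 4 Acsl6-/- libraries and 1212, 1027, 1174 and 1458 in the 4 controls. The knockouts were 1.69-fold higher on the means, with the highest value in Acsl6-/- replicate 1 (log2 fold change 0.75 ± 0.13, adjusted p 0.0229). In the young groups the means were 229 ± 44.4 in controls and 317 ± 39.1 in Acsl6-/- mice (SD, n = 4). Mpeg1, the pore-forming protein perforin-2 of macrophages and microglia, was at 935, 693, 856 and 671 in the 4 Acsl6-/- libraries and 509, 461, 462 and 458 in the 4 controls. Its difference was 1.67-fold (log2 fold change 0.72 ± 0.13, adjusted p 0.0222), and Acsl6-/- replicates 1 and 3 were highest. The call of C4b was lost without Acsl6-/- replicate 2, control replicate 1 or control replicate 2 (adjusted p up to 0.0732), and that of Mpeg1 without Acsl6-/- replicate 3, control replicate 2 or control replicate 4 (up to 0.085).

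The wider lists of these cells had medians above 0 and few calls by limma. Of 22 measured phagocyte genes 1 rose and all 22 were above 0, where 51.15% of all tested genes were. At a raw p of 0.05 or less 10 were higher, against 4.61% of all tested genes. The median was 0.31, and 2 were called higher by edgeR and 7 by DESeq2. Ctss, a lysosomal protease, Grn, the progranulin precursor, and Cybb, the catalytic NADPH oxidase subunit, were at 0.45 ± 0.096, 0.22 ± 0.052 and 0.79 ± 0.19 with adjusted p of 0.0585, 0.0887 and 0.0964. Of 21 measured complement genes 1 rose and 9 were higher at that raw p, with C1qa and C1qc, chains of the initiating C1q complex, at 0.52 ± 0.11 and 0.51 ± 0.11 and the median at 0.17 (0.09 without control replicate 2 and 0.25 without Acsl6-/- replicate 3). Of the complement genes 14 were above and 7 below 0, and 4 were called higher by edgeR and 7 by DESeq2. Both lists had several members just short of the threshold.

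Of 23 measured genes of disease-associated microglia, a state described in degenerating brain, 0 passed the test by limma, 21 were above 0, and the median was 0.32. At a raw p of 0.05 or less 12 were higher and 0 lower, against 4.61% and 4.54% of all tested genes. By edgeR 2 and by DESeq2 6 of the 23 were called higher on recovered reads, and 0 lower by either. Gpnmb, a glycoprotein of lipid-laden phagocytes, was at 243, 239.6, 414 and 192 in the 4 Acsl6-/- libraries and 124, 150.5, 104 and 83.3 in the 4 controls. These values gave 1.20 ± 0.26 (adjusted p 0.0593), and Acsl6-/- replicate 3 was the highest. Ctsd, Lyz2 and Itgax, a lysosomal protease, lysozyme and an integrin chain, were at 0.29 ± 0.066, 0.70 ± 0.18 and 1.09 ± 0.28. Of 21 genes of homeostatic microglia 0 passed by limma (0 by edgeR, 0 by DESeq2), 4 were higher at the raw level and the median was 0.18, with Cx3cr1, the fractalkine receptor, at 0.32 ± 0.13. In bulk tissue, a different number of cells of a type and a different amount of RNA per cell cannot be told apart.

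The 4 Acsl6-/- mice were not alike in these lists. The disease-associated list stood at 0.38, 0.055, 0.38 and -0.021 in Acsl6-/- replicates 1 to 4 and at -0.059, -0.26, -0.22 and -0.25 in controls 1 to 4, as mean log2 deviations, and the phagocyte list at 0.45, 0.091, 0.24 and -0.022 and -0.15, -0.25, -0.16 and -0.21. All knockouts were above all controls, Acsl6-/- replicates 1 and 3 were the highest, and replicate 4 was nearest to the controls. Acsl6-/- replicate 1 is also the knockout with high Ttr. Without the 5 libraries with Ttr above 5000 the medians were 0.33 and 0.31, with C4b still called and Mpeg1 at an adjusted p of 0.103. In that setting, which has fewer libraries, 5 of 23 and 7 of 22 members were higher at a raw p of 0.05 or less, against 12 and 10 with all libraries. For the complement and homeostatic lists the counts were 6 and 0, against 9 and 4. At 2 months the medians of the disease-associated and phagocyte lists were 0.082 and 0.11, while those of the complement and homeostatic lists, 0.17 and 0.17, were close to the values at 18 months. Of the disease-associated and phagocyte lists, 6 of 23 and 6 of 22 members had a larger genotype difference at 18 months at a raw interaction p of 0.05 or less (4.79% of all genes). At that level 2 and 0 members had a lower difference at 18 months (5.23% of all genes).

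Interferon-responsive genes had a similar median but a different pattern across mice. Of 29 measured, 0 passed by limma (0 by edgeR and 0 by DESeq2), 27 were above 0 and the median was 0.32. At a raw p of 0.05 or less 5 were higher, against 4.61% of all tested genes. The list stood at 0.64, 0.69, -0.54 and -0.17 in Acsl6-/- replicates 1 to 4 and at -0.33, -0.40, -0.36 and 0.45 in controls 1 to 4. High levels thus came from Acsl6-/- replicates 1 and 2 and control replicate 4, and the groups overlapped. The median was 0.077 without Acsl6-/- replicate 2, 0.18 without Acsl6-/- replicate 1, 0.52 without Acsl6-/- replicate 3 and 0.58 without control replicate 4. Of 19 measured MHC class I genes 0 passed by limma (0 by edgeR, 1 by DESeq2) and 5 were higher and 1 lower at the raw level. H2-D1 and B2m, the heavy chain and the light chain of the antigen-presenting complex, were at 0.25 ± 0.067 and 0.32 ± 0.094, and the list was highest in Acsl6-/- replicate 1 (0.48) with overlap of the groups. The list's median was 0.25, and 0.14 without that replicate. Without the 5 libraries with high Ttr, a setting with fewer libraries, it was 0.14, with 0 members higher and 2 lower at the raw level and 1 called lower.

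**Figure D3:**
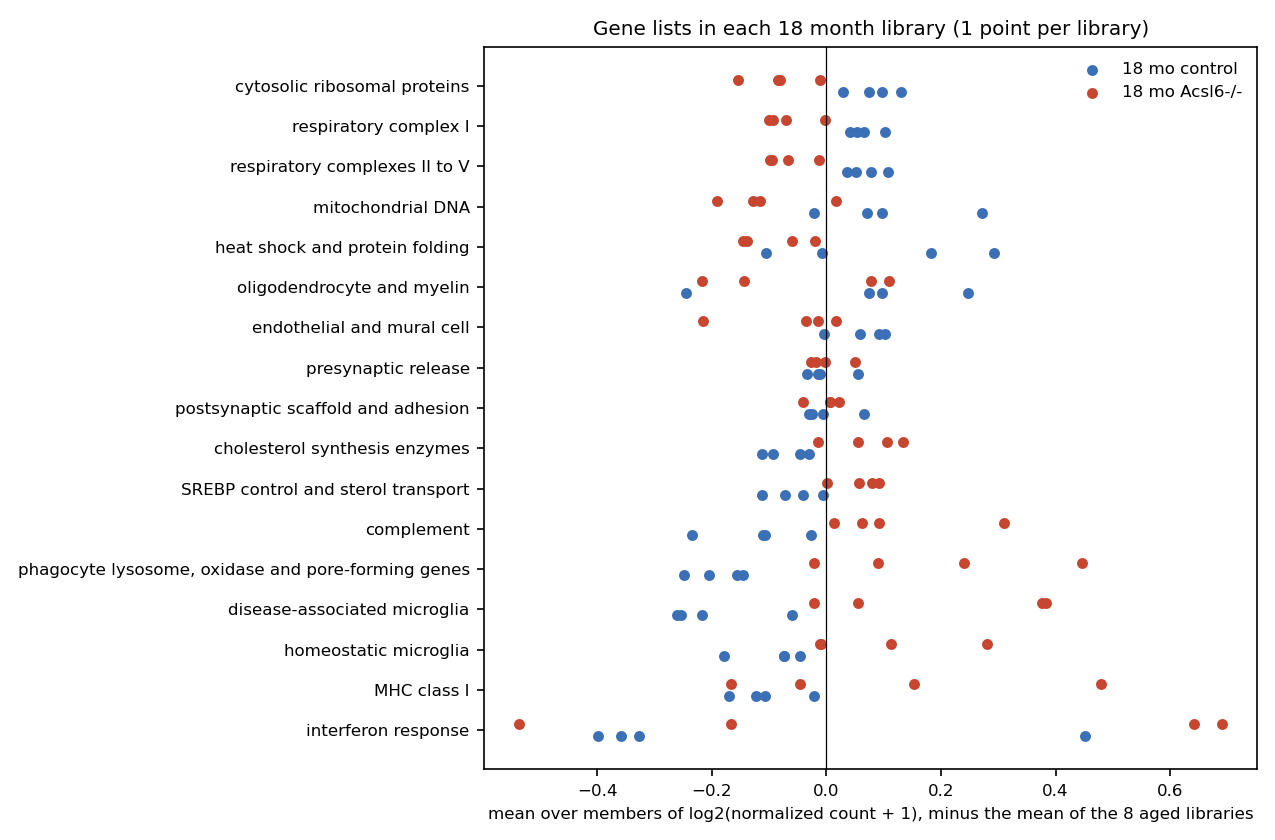
Mean over the members of a gene list of log2(normalized count + 1), as the deviation from the mean of the 8 aged libraries (x axis, log2 units), for 17 lists (rows), with 1 point per library. Ribosomal and nuclear respiratory lists separate with Acsl6-/- lower, the complement and microglial lists separate with Acsl6-/- higher, and interferon and myelin lists overlap.

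The other named genes that rose belong to no common list. Dgkh, a kinase that converts diacylglycerol to phosphatidic acid, was at 519, 573, 477 and 555 in the 4 Acsl6-/- libraries and 273, 393, 392 and 372 in the 4 controls, and its log2 fold change of 0.58 ± 0.099 had an adjusted p of 0.019. Gucy1a2, a subunit of the nitric oxide receptor guanylate cyclase, was at 247, 274, 245 and 226 in the 4 Acsl6-/- libraries and 86.3, 168, 178 and 137 in the 4 controls (0.85 ± 0.16, adjusted p 0.0306). Both had their lowest control in replicate 1. Gucy1a2 was the only one called among 20 measured genes of nitric oxide and cGMP signaling, whose median was 0.029. Without the 5 libraries with high Ttr its call did not hold.

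Lnpep, an insulin-regulated membrane aminopeptidase, was at 1531, 1489, 1587 and 1751 in the 4 Acsl6-/- libraries and 914, 1093, 1305 and 1242 in the 4 controls (0.49 ± 0.092, adjusted p 0.0252). Pura, a nucleic acid binding protein of neurons, was at 1603, 1568, 1558 and 1739 in the 4 Acsl6-/- libraries and 1186, 1282, 1358 and 1369.7 in the 4 controls (0.32 ± 0.057, adjusted p 0.0232). Slc25a34, a carrier of the mitochondrial inner membrane family, was at 492, 412, 455 and 447 in the 4 Acsl6-/- libraries and 315, 369, 306 and 309 in the 4 controls (0.48 ± 0.096, adjusted p 0.0425). These were moderate differences of 1.24-fold to 1.4-fold, and the groups did not overlap in any of them. The 3 gene models that rose without a gene name were 4932438A13Rik, Gm38020 and Gm37008, at 1.15-fold, 1.35-fold and 2.58-fold, with the last at low group means of 25.4 ± 4.26 and 9.85 ± 2.73 (SD, n = 4).

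Ribosomal protein genes were the most numerous among those that fell, 10 of 27. They encode the protein part of the cytosolic ribosome. Of 82 measured, 10 fell, 0 rose, 62 were lower and 0 higher at a raw p of 0.05 or less, where 4.54% of all genes were lower, and 81 were below 0. The median was -0.16 (-0.18 without the 5 libraries with high Ttr). The number called depended on the test. It was 2 with the aged groups alone, 3 with replicate number as a block and 4 with a trend on transcript length removed. By edgeR it was 10 and by DESeq2 27. By library the list stood at -0.15 to -0.011 in the Acsl6-/- libraries and 0.029 to 0.13 in the controls, which did not overlap. The median was -0.14 over the 49 genes of the large subunit, of which 7 fell, and -0.16 over the 33 of the small subunit, of which 3 fell.

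Rps29 (minus strand, chr12:69157722-69159186) had the lowest adjusted p of the list. It was at 1400.4, 1105, 1233 and 1319 in the 4 Acsl6-/- libraries and 1711, 1722, 1780.0 and 1612 in the 4 controls, with a log2 fold change of -0.44 ± 0.061 and an adjusted p of 0.00462. Acsl6-/- replicate 1 was the highest knockout and still below all controls. Rps12, also of the small subunit, was at 1488, 1198, 1514 and 1409.6 in the 4 Acsl6-/- libraries and 1926, 1652, 1792 and 1682 in the 4 controls (-0.33 ± 0.063, adjusted p 0.028).

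The 7 large subunit genes that fell were between 0.798 and 0.858 of the control mean. Rpl11 was at 1856, 1555, 1823 and 1793 in the 4 Acsl6-/- libraries and 2180.2, 2159, 2136 and 2082 in the 4 controls. Rpl35 was at 964, 876, 913 and 955 in the 4 Acsl6-/- libraries and 1162, 1104, 1152 and 1048 in the 4 controls. Rpl35a was at 1513, 1399.7, 1488 and 1576 in the 4 Acsl6-/- libraries and 1817, 1837, 1716 and 1748 in the 4 controls. In each of them the highest knockout stayed under the lowest control. Rpl38 was at 927, 825, 890.3 and 838 in the 4 Acsl6-/- libraries and 1042, 1012, 1131 and 1017 in the 4 controls. Rpl37 was at 1325, 1101, 1240.4 and 1187 in the 4 Acsl6-/- libraries and 1666, 1526, 1413 and 1475 in the 4 controls. Rpl26 was at 2185, 2069, 2119 and 2069 in the 4 Acsl6-/- libraries and 2640.0, 2378, 2358 and 2469 in the 4 controls. Acsl6-/- replicate 2 was the lowest knockout in these, level with replicate 4 in Rpl26. Rpl23a was at 1848, 1595, 1758 and 1752 in the 4 Acsl6-/- libraries and 2168, 2005, 2016 and 1979.9 in the 4 controls. Their log2 fold changes ran from -0.33 to -0.22 and their adjusted p from 0.0232 to 0.0456, and leaving out 1 aged library ended each of these calls in 4 to 7 of 8 cases.

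Many ribosomal protein transcripts begin with an unbroken stretch of C and T, the 5′ terminal oligopyrimidine tract, through which their translation is regulated. The bases around the annotated start of the called genes with a RefSeq window (GRCm38.p6) are shown for that reason, as 30 bases each, with the longest run of C and T between 10 bases before and 40 after the start in capitals. Of the 10 that fell 7 were matched, and Rpl35a has several annotated starts, of which 1 is shown. Relative to the annotated start, the runs began at -7 in Rpl35, -2 in Rpl38, 8 in Rps12, 13 in Rpl11, 21 in Rpl26 and 28 in Rpl37. In Rpl35a the run began at 24 or -5, by the start used. None began at the annotated start itself, so these runs are not shown to be terminal tracts.
Rpl35 chr2:39005115-39005144 (-): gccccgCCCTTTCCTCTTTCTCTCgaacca
Rpl11 chr4:136053357-136053386 (-): cggaagTCTCCCTCTCTCTTCCTgttctcc
Rpl26 chr11:68901581-68901610 (+): gtgtagTTCTCTTTCCTTTTgcggccatcg
Rpl38 chr11:114668572-114668601 (+): gcctcgTTCTTTCCCCgttctcttcggttc
Rps12 chr10:23787178-23787207 (-): cgccggCCTTTTCCCCTgccgccgccgact
Rpl37 chr15:5116633-5116662 (+): cgggggtgCTTTCTCTTCCggtctctttgg
Rpl35a chr16:33056471-33056500 (+): ggcttgCCTTCCTCTTTCCgccatcttggc
A run of 8 or more such bases was present for 40 of the 61 ribosomal protein genes matched by symbol (65.6%), for 11 of 65 respiratory genes (16.9%) and for 2355 of 11959 tested genes (19.7%). The ribosomal share was above that of all tested genes and the respiratory share was not. Whether such runs bear on RNA level was not tested. Several of these genes have close processed copies in the genome, and only uniquely mapped reads were counted, so their levels are uncertain.

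Nuclear genes of the respiratory chain gave another 8 of the 27 that fell. Of 36 measured complex I genes 2 fell, 0 rose, 19 were lower at a raw p of 0.05 or less and the median was -0.13. Of 42 genes of complexes II to V 6 fell, 0 rose, 26 were lower at that level and the median was -0.14. Neither list had a member that was higher at a raw p of 0.05 or less. Over all tested genes 4.54% were lower and 4.61% higher at that level. With the aged groups alone 0 genes of complex I and 2 of complexes II to V were called lower. With replicate number as a block the counts were 0 and 0, and with a trend on transcript length removed 1 and 4. By edgeR they were 3 and 6, and by DESeq2 7 and 15.

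Ndufa2 and Ndufs5 are accessory subunits of complex I, which passes electrons from NADH. Ndufa2 was at 475, 394, 389.7 and 449 in the 4 Acsl6-/- libraries and 549, 580.0, 591 and 556 in the 4 controls (-0.42 ± 0.062, adjusted p 0.0061). Ndufs5 was at 849, 723, 784 and 859 in the 4 Acsl6-/- libraries and 1002, 996, 922 and 989 in the 4 controls (-0.28 ± 0.053, adjusted p 0.0252). The groups lay farther apart in Ndufa2 than in Ndufs5. Uqcr10, a small subunit of complex III, was at 765, 771, 739 and 718 in the 4 Acsl6-/- libraries and 932, 944, 904 and 865 in the 4 controls (-0.28 ± 0.044, adjusted p 0.00845).

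Among subunits of cytochrome c oxidase, complex IV, Cox6b1 was at 1591, 1594, 1499 and 1558 in the 4 Acsl6-/- libraries and 1851, 1904, 1984 and 1812 in the 4 controls. Cox8a was at 3046, 2884, 2747 and 2763 in the 4 Acsl6-/- libraries and 3366, 3619, 3234 and 3224 in the 4 controls. Ndufa4, first assigned to complex I and now to complex IV, was at 2748, 2923, 2519 and 2552 in the 4 Acsl6-/- libraries and 3109, 3199, 3199.5 and 3073 in the 4 controls. Their log2 fold changes were -0.27 ± 0.045, -0.23 ± 0.043 and -0.23 ± 0.042, with adjusted p of 0.012, 0.0232 and 0.0232. In all 3 genes every knockout lay below every control.

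Of the ATP synthase, complex V, Atp5e was at 701, 624, 639.6 and 651 in the 4 Acsl6-/- libraries and 858, 903, 989 and 813 in the 4 controls. Atp5j2 was at 1145, 1041, 1072 and 1178 in the 4 Acsl6-/- libraries and 1377, 1435, 1276 and 1323 in the 4 controls. Usmg5, a small protein bound to the same enzyme, was at 1411, 1359.5, 1236 and 1277 in the 4 Acsl6-/- libraries and 1582, 1548, 1499 and 1493 in the 4 controls. No group overlapped with the other in these genes. Atp5e differed most (-0.44 ± 0.071, adjusted p 0.012), and Atp5j2 and Usmg5 were at -0.29 ± 0.055 and -0.21 ± 0.043 with adjusted p of 0.0286 and 0.0425.

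The 13 protein genes of mitochondrial DNA were all below 0, with a median of -0.17. None passed the test by limma (by edgeR 1 and by DESeq2 2 were called lower), and 8 were lower at a raw p of 0.05 or less. The groups overlapped in the list's mean, at -0.19 to 0.017 in Acsl6-/- libraries and -0.022 to 0.27 in controls. Mitochondrial ribosomal proteins, 78 genes made in the nucleus, were near 0, with a median of -0.041, 8 lower at the raw level and 0 called by limma (by edgeR 0, by DESeq2 1).

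Transcript length moved with this result. The genes that fell had a median annotated length of 917 bases and those that rose 4877 bases, against 3180 for all tested genes, and 16 of the 27 that fell were under 1000 bases, as were 8.28% of tested genes. Over all 1407 genes under 1000 bases the median log2 fold change was -0.039, and over the 914 genes of 8000 bases or more it was 0.021. In each of the 4 controls the median level of genes under 1000 bases was above that in each of the 4 Acsl6-/- libraries. With a smooth trend on length removed from each library, 15 of the 27 that fell and 13 of the 14 that rose were still called, the ribosomal median was -0.12 with 48 of 82 lower at the raw level, and the medians of complex I and complexes II to V were -0.097 and -0.088. Ribosomal and respiratory genes of 1000 bases or more, 90 in number, had a median of -0.12 with 49 lower at a raw p of 0.05 or less. The 1312 genes under 1000 bases outside these lists had a median of -0.021 with 7.93% lower at that level. The part of RNA length or quality in the result was not tested.

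**Figure D4:**
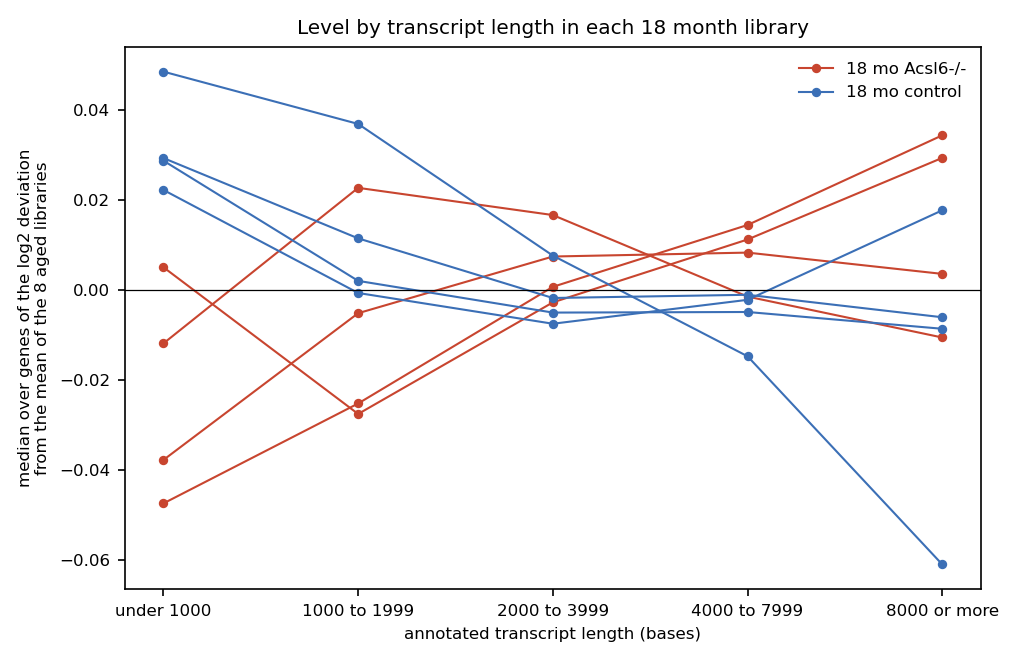
Median over genes of the log2 deviation from the mean of the 8 aged libraries (y axis) by annotated transcript length (x axis, bases), with 1 line per library. For transcripts under 1000 bases the 4 controls lie between 0.022 and 0.049 and the 4 Acsl6-/- libraries between -0.047 and 0.005, and in the longer classes the lines of the 2 groups cross.

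The remaining named genes that fell have varied roles. Clu, the secreted chaperone and lipid carrier clusterin of astrocytes, was at 6276, 6144, 6723 and 6357 in the 4 Acsl6-/- libraries and 9065, 8647, 9458 and 9421 in the 4 controls. This was 0.697 of the control mean, with no overlap (-0.52 ± 0.09, adjusted p 0.0222). The call of Clu did not hold when each aged library was left out in turn, nor without the 5 libraries with high Ttr. Naa38, a subunit of an N-terminal acetyltransferase, was at 202, 188, 201 and 193 in the 4 Acsl6-/- libraries and 285, 278, 258 and 276 in the 4 controls (-0.48 ± 0.075, adjusted p 0.00845). Naa38 lies across the ends of Cyb5d1 and Tmem88 on the opposite strand, and whether counting used strand is not given in the sources used here. The same holds for Acsl6, Ndufa2, Elob, Rpl35, Ubl5, Usmg5 and Rpl23a, which overlap other genes on the opposite strand.

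Elob, the elongin B adaptor of ubiquitin ligases, was at 863, 734, 861 and 787 in the 4 Acsl6-/- libraries and 1030.4, 988, 976 and 954 in the 4 controls. Ubl5, a ubiquitin-like protein of splicing, was at 745, 678, 592 and 657 in the 4 Acsl6-/- libraries and 801, 854, 824 and 837 in the 4 controls. Mif, an inflammatory cytokine that many cells hold in store, was at 1389.6, 1257, 1446 and 1345 in the 4 Acsl6-/- libraries and 1774, 1739, 1608 and 1502 in the 4 controls. The gaps between groups were small in Elob, Ubl5 and Mif, whose log2 fold changes were -0.29 ± 0.05, -0.32 ± 0.057 and -0.28 ± 0.052 with adjusted p from 0.0222 to 0.0232. Shisa9, an accessory protein of AMPA receptors, was at 666, 642, 651 and 635 in the 4 Acsl6-/- libraries and 792, 897, 735 and 768 in the 4 controls (-0.29 ± 0.057, adjusted p 0.0306). Ppia, the prolyl isomerase cyclophilin A, was at 5597, 5337, 5529.9 and 5636 in the 4 Acsl6-/- libraries and 6003, 6345, 6079.9 and 6443 in the 4 controls (-0.17 ± 0.034, adjusted p 0.0425). Ppia was the smallest of all called differences, at 0.889 of control, and its call was lost without any 1 of the 8 aged libraries.

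Genes that make or carry the fatty acids on which ACSL6 acts did not pass the test. Among 20 genes of fatty acid synthesis, desaturation and elongation 0 were called by limma (by edgeR 0 higher and 0 lower, by DESeq2 0 and 1), 2 were higher and 2 lower at a raw p of 0.05 or less. Scd1, a stearoyl-CoA desaturase, was at -0.26 ± 0.056 (adjusted p 0.0585), Fads1 at -0.11 ± 0.048 and Fasn at 0.21 ± 0.064. Of 11 genes of fatty acid binding and DHA transport 0 passed by limma (0 lower by edgeR, 1 by DESeq2) and 3 were lower at the raw level, namely Dbi, the acyl-CoA binding protein, at -0.28 ± 0.06, Fabp7 at -0.43 ± 0.12 and Fabp3 at -0.29 ± 0.13. The 17 lysophospholipid acyltransferases, which place the activated fatty acid in phospholipid, had 0 members at a raw p of 0.05 or less and a median of -0.02, and 0 were called by edgeR and by DESeq2.

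Synaptic genes lay close to 0. The medians were -0.0027 over 34 genes of presynaptic release, 0.0074 over 32 of postsynaptic scaffold and adhesion and 0.0089 over 32 glutamate and GABA receptor genes, and 0 of these 98 passed by limma. By edgeR 0 were called higher and 0 lower, and by DESeq2 3 and 2. At a raw p of 0.05 or less the counts were 2, 0 and 2 higher and 0, 1 and 3 lower in these lists. Over all tested genes 4.61% were higher and 4.54% lower at that level. Snap25, a core fusion protein, was at 44392, 48363, 47505 and 45994 in the 4 Acsl6-/- libraries and 49199, 48058, 47938 and 46927 in the 4 controls. Those values overlapped, with a log2 fold change of -0.045 ± 0.046 (adjusted p 0.836). Dlg4, the scaffold PSD-95, was at -0.071 ± 0.037, Sv2b at 0.077 ± 0.049, Grin2b at -0.15 ± 0.095 and Nlgn1 at 0.026 ± 0.091, with adjusted p of 0.589 to 0.963.

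Synj2, a phosphoinositide phosphatase of vesicle recycling, was at 900.3, 845, 959.8 and 839.9 in the 4 Acsl6-/- libraries and 712, 703, 761 and 813 in the 4 controls. It was above the controls in all 4 knockouts and did not pass over all genes (0.25 ± 0.058, adjusted p 0.0885), while at 2 months it was at 0.34 ± 0.058 (adjusted p 0.0159). Sparcl1, a synapse-organizing protein of astrocytes, was at 38615, 37968, 39027 and 38385 in the 4 Acsl6-/- libraries and 42002, 39822, 40403 and 43177 in the 4 controls. Its 4 knockout values were below all controls, at -0.10 ± 0.034, with an adjusted p of 0.312. Gabra3, a GABA receptor subunit, and Ryr3, a calcium release channel, were at -0.45 ± 0.11 and -0.35 ± 0.077 (adjusted p 0.117 and 0.0671).

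Chaperones lay mostly below 0. Of 28 genes of heat shock and protein folding 27 were below 0 and 13 were lower at a raw p of 0.05 or less, where 4.54% of all tested genes were. The median was -0.15, yet 0 passed by limma (0 lower by edgeR and 0 by DESeq2). Without the 5 libraries with high Ttr 4 were called lower, 21 were lower at the raw level and the median was -0.26, and without control replicate 1 the median was -0.085. The aged controls left in the first of these settings are replicates 1 and 2, the controls in which this list was highest. Dnajb1, a cytosolic co-chaperone, was at -0.24 ± 0.071, and Manf and Hspa5, of the endoplasmic reticulum, were at -0.39 ± 0.12 and -0.35 ± 0.11. The list stood at -0.14, -0.02, -0.06 and -0.14 in Acsl6-/- replicates 1 to 4 and 0.29, 0.18, -0.11 and -0.0076 in controls 1 to 4, so that controls 1 and 2 were high and control 3 lay among the knockouts.

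Lists of other cell types and of neuronal activity had 0 members called by limma. Immediate early genes (23 genes, median -0.24), oligodendrocyte and myelin genes (33 genes, median -0.075), endothelial and mural cell genes (29 genes, median -0.11) and red blood cell genes (8 genes, median -0.38) each had 3 members lower and 0 higher at a raw p of 0.05 or less. By edgeR and by DESeq2 0 of their members were called. Over all tested genes 4.54% were lower and 4.61% higher at that raw p. Without the 5 libraries with high Ttr the immediate early and myelin medians were -0.018 and -0.00066, and those of endothelial and red blood cell genes -0.088 and -0.36. The myelin median was -0.15 without control replicate 2, -0.13 without Acsl6-/- replicate 3, -0.0022 without Acsl6-/- replicate 2 and -0.0015 without control replicate 4, and the endothelial median -0.058 without control replicate 3. Red blood cell genes, with Hbb-bs at -0.63 ± 0.19, summed to 2115 to 2832 in the Acsl6-/- libraries and 2767 to 3299 in controls. Reactive astrocyte genes (23 genes, median 0.065, 0.0084 without Acsl6-/- replicate 1) had 2 members on each side at that level, with Serpina3n at 0.43 ± 0.14, and 0 and 1 were called by edgeR and DESeq2. The medians of granule cell, Purkinje cell and Bergmann glia and astrocyte genes were 0.034, 0.051 and -0.029, with 3, 2 and 0 members higher and 0, 1 and 2 lower at the raw level, and 0 called by edgeR and 1 in each list by DESeq2. The part of cell composition or of blood and vessel content in the results above was not tested.

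Whether a genotype difference at 18 months differed from that at 2 months was asked with the interaction. By limma 3 genes passed, of which 1 was higher (0.00587% of genes) and 2 were lower (0.0117%), and none of the 3 was called at 18 months. Klf2, an endothelial transcription factor, was at 215, 277, 259.5 and 273 in the 4 Acsl6-/- libraries and 305, 309.8, 285 and 365 in the 4 controls, while its young means were 213 ± 44.3 in Acsl6-/- mice and 117 ± 9.43 in controls (SD, n = 4). The difference was -0.30 ± 0.13 at 18 months and 0.84 ± 0.13 at 2 months (adjusted interaction p 0.0299). Utp14b, a factor of small ribosomal subunit assembly, was at -0.24 ± 0.089 and 0.63 ± 0.089 at these ages (adjusted interaction p 0.0296). Whether Utp14b overlaps another gene was not checked. Plcb1, a phospholipase C, was at 0.011 ± 0.044 and -0.39 ± 0.044 (adjusted interaction p 0.0299). In all 3 the difference was larger in size in the young mice. Their calls rested on single libraries. The count was 0 without aged Acsl6-/- replicate 2 or 3, aged control replicate 1, 3 or 4, young Acsl6-/- replicate 1 or 3 or young control replicate 1 (1481 to 1735 genes at a raw p of 0.05 or less), 1 without aged Acsl6-/- replicate 4, 5 without young Acsl6-/- replicate 2 and 11 without aged control replicate 2.

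The 2-month comparison called 23 genes higher (0.135%) and 13 lower (0.0763%) in Acsl6-/- mice. Of the 14 genes that rose at 18 months 4 were called in both, and of the 27 that fell 1 was, Acsl6. Over the 27 the median at 2 months was 0.011, and 25 of them had a raw interaction p of 0.05 or less, with the lowest adjusted interaction p in Clu, at 0.0586. So did 11 of the 14 that rose at that raw level. Clu stood at 5763 ± 843 in young controls and 6758 ± 999.5 in young Acsl6-/- mice, and at 9148 ± 378 and 6375 ± 248 in the aged groups (SD, n = 4). Among the ribosomal genes 59 of 82 had a lower difference at 18 months at a raw interaction p of 0.05 or less (5.23% of all genes), with a list median of 0.049 at 2 months, and for complex I and complexes II to V the counts were 13 of 36 and 15 of 42. The interaction and the 18-month comparison share the aged libraries, so these counts repeat part of the same measurement.

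**Figure D5:**
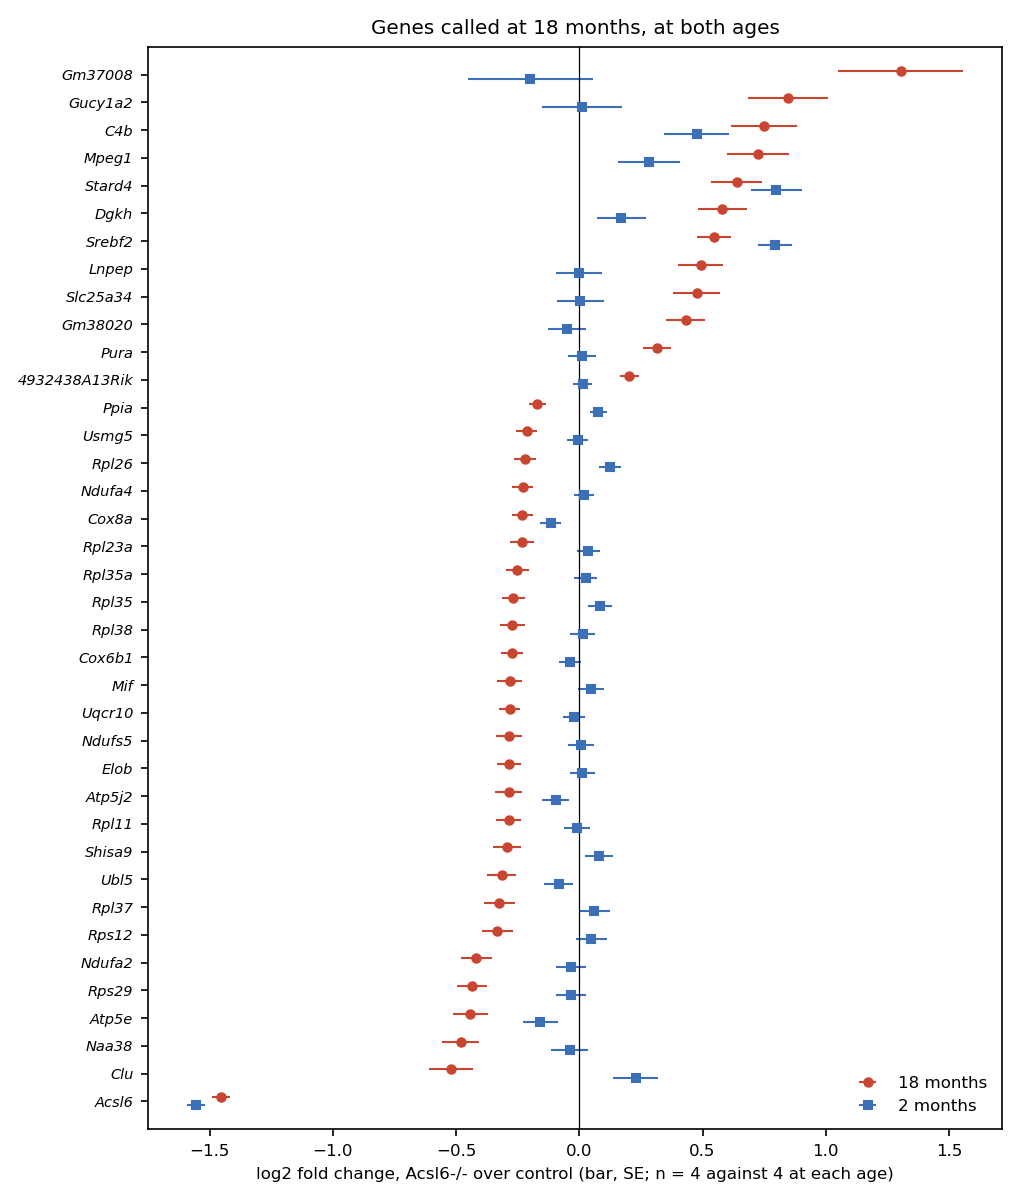
Log2 fold change of Acsl6-/- over control (x axis, bars are SE, n = 4 against 4) for 38 of the 41 genes called at 18 months (rows), at 18 months (red circles) and at 2 months (blue squares). Acsl6, Srebf2 and Stard4 lie away from 0 at both ages, while most ribosomal and respiratory genes lie near 0 at 2 months.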

How the data were processed

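Poly-A RNA-Seq of 16 whole cerebella was analysed, 4 each from control and Acsl6-/- mice at 18 and at 2 months. The authors trimmed reads (Trimmomatic 0.36), aligned them to GRCm38 (STAR 2.5.2b), counted uniquely mapped reads per gene with featureCounts and deposited, for 17074 genes, counts divided by the DESeq2 size factor of each library (a normalized signal). The lowest gene mean in that table was 9.31. Dividing each column by the value of 1 read gave whole numbers for 100% of values within 0.001 in each library, which recovered 16953548 to 27569428 reads per library, and intervals over these would cover counting error only.

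The study tested with DESeq2. Because the deposited values are normalized, the main test here was limma 3.58.1 (R 4.3.3) on log2(value + 1), for genes with a mean of at least 10, with 1 coefficient for each of the 4 groups, empirical Bayes moderation with a mean-variance trend and Benjamini-Hochberg adjustment, at an adjusted p under 0.05. All 16 libraries shared 1 estimate of the spread. edgeR 4.0.16 and DESeq2 1.42.0 on recovered reads called 49 and 168 genes at 18 months. Single values were tested with an exact permutation test (SciPy 1.17.1). The fit was tested on simulated data.

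Named genes were Acsl6, each called gene with a name other than a Gm, Rik or clone name, each gene called for the interaction, up to 4 genes in each direction with the smallest p in a described list, and genes that the study names. Certain genes covered by these rules are not reported here, but the counts include them. The members of the lists were chosen with earlier results of these data known, so lists are described by counts and medians beside those of all genes. Lengths and coordinates are from GENCODE vM21 and promoters from RefSeq (GRCm38.p6). The alternatives that leave out libraries with high Ttr or remove trends on length and GC content were added after seeing the data.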

Additional observations from a re-analysis of the deposited data

Results flagged for a closer look

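Of 102 groups of 4 libraries that were checked, 5 had a library far from the other 3, where chance alone marks about 1 in 20 groups. The count is thus about what chance gives. Ttr and Gm42418 were included because a library stood apart in them, so their marks were fixed in advance. Mpeg1 was at 509 in aged control 1 and at 458 to 462 in the other controls. Ndufs5 was at 922 in aged control 3 and at 989 to 1002 in the other controls. Slc25a34 was at 369 in aged control 2 and at 306 to 315 in the other controls. In all 3 genes the library was on the side of the Acsl6-/- values. Ttr, a choroid plexus transcript, was at 12123 in aged Acsl6-/- replicate 1 and at 163 to 389.7 in the other knockouts. Gm42418 was at 686717 in aged control 3 and at 16470.1 to 41707 in the other controls.

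The genotype difference at 18 months differed from that at 2 months by the interaction test in 3 genes. It was lower by a log2 value of -0.87 in Utp14b (adjusted p 0.0296) and -1.14 in Klf2 (adjusted p 0.0299), and higher by 0.40 in Plcb1 (adjusted p 0.0299), each with 4 against 4 libraries at each age and limma.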

How the results depend on the processing

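With 4 libraries a group, the number of calls varied between settings. The 41 genes called at 18 months kept their direction under each of the alternatives (860 gene values, 595 of them called, 265 not). Their groups did not overlap, so leaving out libraries could not turn a direction, and the kept directions are no sign of stability. Of the 41 genes 5 were called under each alternative, among them Acsl6, Srebf2, Stard4 and Rps29. The count was 41 in the main analysis, and 16 with the aged groups alone, 63 with array weights (26 higher, 37 lower), 168 with DESeq2 and 23 without the 5 libraries with high Ttr. At an unadjusted p it was 1560 (up to 0.05) and 480 (up to 0.01). Quantile normalization (18 higher, 25 lower), removal of the length trend (16 and 17) and of length and GC trends (20 and 21) moved the split of higher and lower calls from 14 and 27. Leaving out 1 aged library gave 16 to 53 genes. The interaction count was 3, and 6 with array weights, 87 with DESeq2, 0 without the libraries with high Ttr (1790 at a raw p of 0.05 or less), 1 with length removed and 0 to 11 without 1 library.

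With the replicate block, 13 genes were called at 18 months (5 higher, 8 lower), 11 of them among the 41, and 3 for the interaction. The deviations of same-numbered aged libraries correlated at -0.20, 0.051, -0.11 and -0.048. The labels do not say whether equal numbers share a litter or a preparation day. Correlations over all genes cannot decide it, as other differences between libraries enter them.

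Of 336 medians of 16 lists under the alternatives, 6 moved by more than their spread and 3 had another sign, those of presynaptic release with array weights (0.0029), edgeR (0.00078) and without aged control replicate 2 (0.014), against -0.0027. Among genes with a mean of at least 50 the complement median was 0.34 and that of disease-associated microglia 0.16, against 0.17 and 0.32.

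Strand use in counting, whole-tissue composition and RNA quality limit the comparison and were not tested. Low genes, near 10 counts, have the least precise folds.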

Other observations

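Other gene groups had no call by limma at 18 months, and their values are given as description. The integrated stress response list (22 genes) had 19 members above 0 and a median of 0.13 at 18 months and 0.37 at 2 months, with 2 higher and 0 lower at a raw p of 0.05 or less, and the 18-month median was 0.041 without aged control replicate 2. Immediate early genes, which follow neuronal activity, had a median of -0.24 at 18 months and 0.34 at 2 months, but -0.018 at 18 months without the 5 libraries with high Ttr, and 10 of 23 had a lower genotype difference at 18 months at a raw interaction p of 0.05 or less where 5.23% of all genes did. Myelin genes had a median of -0.075 at 18 months and 0.16 at 2 months, with 11 of 33 lower in that way, and their 18-month median was -0.0015 without aged control replicate 4, -0.15 without aged control replicate 2 and -0.00066 without the libraries with high Ttr. Meningeal fibroblast and collagen genes (22 genes) had a median of -0.14 at 18 months and 0.076 at 2 months, with 2 lower and 0 higher at 18 months at a raw p of 0.05 or less, and the 18-month median ran from -0.29 without aged Acsl6-/- replicate 2 to 0.0062 without aged Acsl6-/- replicate 3 (-0.078 without the libraries with high Ttr). Brainstem and midbrain genes (10 genes) had a median of -0.20 at 18 months and 0.87 at 2 months, with 1 lower, and the 18-month median ran from -0.66 without aged Acsl6-/- replicate 1 to -0.11 without aged control replicate 1, with knockout libraries at -0.83 to 1.46 as log2 deviations. By edgeR and by DESeq2 0 genes of these lists were called at 18 months.

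Chromosome 11, which carries Acsl6, held 7 of the 27 genes that fell, Acsl6 included, and 0 of the 14 that rose, while it holds 7.84% of tested genes. None of the other 6 lies within 10 megabases of Acsl6.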
